A study of Mus musculus with 9 samples.

Results

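The genes for the protein components of the cytosolic ribosome were examined in mouse testis with and without RFX2. This transcription factor of spermatocytes and early round spermatids acts on genes for cilia and flagella. A gene was taken when its symbol in the GENCODE M21 annotation starts with Rpl or Rps and a digit, or is Rpsa, Rplp0, Rplp1 or Rplp2, and it is protein coding. The S6 kinase genes, Rps19bp1, pseudogenes and Rps3a3 were left out. This gave 84 of the 23074 genes in the count table, with 48 genes of the large subunit, 33 of the small subunit and 3 of the stalk. Of these, 80 had enough counts for a test, and Rpl23a, Rpl36a, Rps27 and Rps27rt did not.

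RNA was taken from decapsulated testes of mice 29 to 30 days old, from 5 wild-type and 4 Rfx2-/- animals. The Rfx2 allele was built with loxP sites around exon 7 in R1 embryonic stem cells of 129/Sv origin, and the exon was removed by Cre driven from an actin promoter in an FVB/N transgenic line, so it is lost from every tissue. Founders came from C57BL/6 blastocysts, and the labels give a mixed background of these strains for all 9 mice. The knockout stops spermatids before they elongate, so the cell make-up of the organ differs between the genotypes as well.

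The libraries held 13574764 to 28800855 counts, with Rfx2-/- replicate 1 the deepest. Levels are given as CPM, the counts per 1000000 of the library after normalization, and 3 counts, taken here as the limit that a count of 0 allows, correspond to 0.0995 to 0.234 CPM, covering counting error only. Rfx2 itself stood at 549 ± 54.4 CPM (SD, n = 5) in the wild-type libraries and at 146 ± 59.7 CPM (SD, n = 4) in the knockouts, a log2 fold change of -1.91 (adjusted p = 0.000781). These counts cover the whole gene and not exon 7 alone. The germ-cell and somatic marker lists of the testis were all detected, with no marker at 0 counts throughout. Of 9 elongating spermatid markers, 5 were lower in Rfx2-/- at an adjusted p of 0.05, and their summed level ran from 8440 to 17964 CPM in wild type, against from 6683 to 10714 CPM in the knockouts. In whole testis, fewer cells of a type and less RNA per cell cannot be told apart.

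A cytosolic ribosome is built from a large and a small subunit, each of folded ribosomal RNA and many small proteins. Its genes are used in every cell, and many of their mRNAs begin with a run of pyrimidines, the terminal oligopyrimidine (TOP) start, through which their translation is controlled together. The genome also carries many processed pseudogenes copied from these mRNAs. In male germ cells the X chromosome is silenced during meiosis, and autosomal copies of X-linked ribosomal protein genes, such as Rpl10l and Rpl39l, are known to be used there in their place.

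Ribosomal protein mRNAs took a small part of the counts, and a few genes held most of it. They made up 0.305% ± 0.0105 of all counts in wild type (SD, n = 5). The 10 genes with the most CPM, among them Rplp0, Rpl8, Rpl4, Rpl39l and Rpl10l, held 57.6% of the CPM of all members in wild type. The lowest member stood at 0.192 CPM, the median member at 11.7 CPM and the highest at 292 CPM.

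In CPM per kilobase of exon, Rpl8, a large-subunit protein at the catalytic centre, had the highest wild-type level at 270.2 ± 14.2 (SD, n = 5). Rpl39l followed at 257 ± 29.3, and these neighbours differed by less than their spread. Rplp0, the base of the stalk that recruits elongation factors, stood at 184 ± 8.68, next to Rpl4 at 180.3 ± 9.09. The tested genes with the lowest levels per kilobase were Rpl17 at 0.706 ± 0.117, Rpl3l, the striated-muscle copy of Rpl3, at 0.756 ± 0.217, and Rps6, the target of S6 kinases, at 0.764 ± 0.223, which differed by less than their spread. Both ends of this order depend on the length used. Per kilobase of windows not shared with transcripts of other genes, Rplp1 (435), Rplp0 (264) and Rpl39l (258) stood above Rpl8 (226). Rpl10 (0.512), Rpl11 (0.678) and Rps6 (0.745) were lowest there, with Rpl17 at 1.33. These windows come from every annotated transcript of a gene, also those whose exons were not counted. Rpl8 had 1249 of them against 1044 bases of exon, and Rpl11 2267 against 954. This second order is therefore not a correction for reads lost to copies.

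The autosomal copies stood far above the X-linked genes they derive from. Rpl39l on chromosome 16 (10170226 to 10174911, GRCm38) had 225, 220.3, 186, 193 and 245 CPM in the 5 wild-type libraries, while X-linked Rpl39 had 1.99, 1.78, 2.06, 2.14 and 1.87 CPM. Rpl10l on chromosome 12 (66283379 to 66284401) had 154, 155, 119, 148 and 183 CPM, against 0.917, 0.928, 0.731, 0.442 and 0.935 CPM for X-linked Rpl10. In every wild-type library, the autosomal copy of these pairs was the higher one. Rpl36al on chromosome 12 had 18.3 ± 1.38 CPM and X-linked Rpl36a 0.192 ± 0.065 CPM, the latter from 1 to 3 counts a library, at or under the limit that a count of 0 allows. Rps4x, the other X-linked member, had 3.93 ± 0.66 CPM, and Rps4l, its autosomal copy, was not analysed here. Among pairs without an X-linked gene, Rpl22 stood at 44.6 ± 4.96 CPM and Rpl22l1 at 14.1 ± 4.36 CPM. Rpl7 stood at 48.1 ± 4.00 CPM and Rpl7l1 at 34.9 ± 3.37 CPM. Rps27l stood at 22.9 ± 1.07 CPM and Rps27 at 0.43 ± 0.196 CPM.

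Low counts went with copies of the gene elsewhere. Reads that fit several places in the genome were discarded when the count table was made, so a gene with close copies could keep only part of its reads. Of the 84 members, 81 shared at least one 50-base window of their transcripts exactly with an annotated pseudogene, with a median of 8 pseudogenes a member and up to 120 for Rpl7a. The median member shared 23.1% of its windows with transcripts of other genes, against 0.394% over all tested genes. The 28 members with at most 5 such pseudogenes had a median wild-type level of 45.9 CPM per kilobase. The 11 members with more than 20 had a median of 2.33. Across the 84 members, level and number of pseudogenes had a Spearman correlation of -0.53, a description over genes that share libraries and counting rules. Rpl39l and Rpl3l shared no window, and Rps27rt, Rpl35, Rpl36, Rpl23a and Rps3a1 shared the most, from 71.0% to 91.1%. Levels of members with many copies, and contrasts between paralogues such as Rps27 with Rps27l, are therefore uncertain as measures of mRNA. Rpl39 shared 6.81% of its windows and Rpl10 33.5%. All these shares are over windows of every annotated transcript, counted or not, so the shares of the counted exons may differ. Rpl10 had 1545 unshared windows against 903 bases of exon, and Rpl39 had 1272 against 612. The contrasts of these genes with Rpl10l and Rpl39l carry the same limit.

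**Figure D1:**
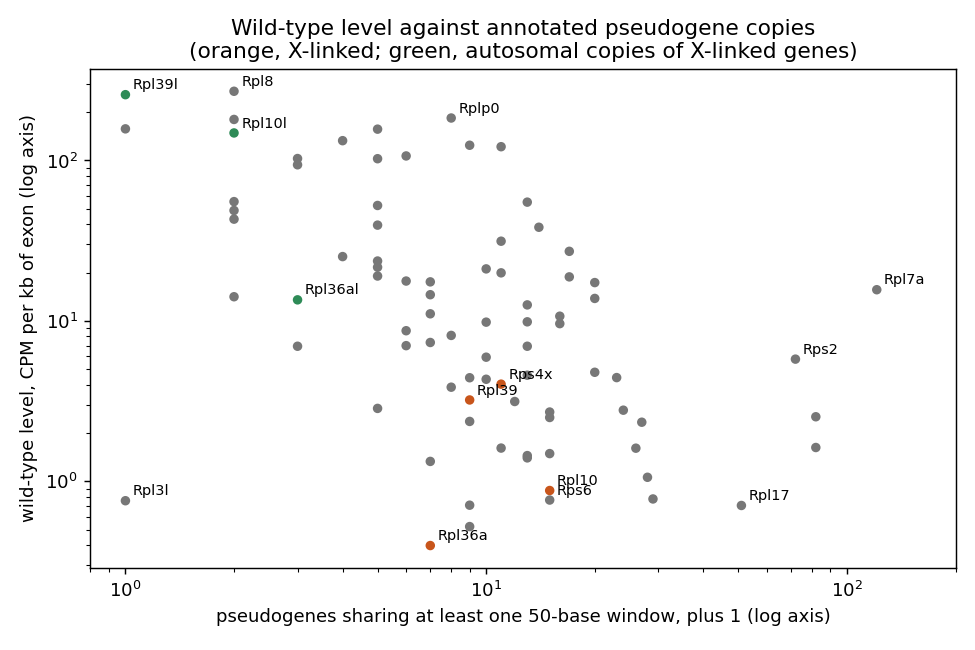
Wild-type level of each of the 84 ribosomal protein genes (mean CPM per kilobase of exon, log axis) against the number of annotated pseudogenes that share at least one 50-base window with it (plus 1, log axis). X-linked genes are orange, and the autosomal copies Rpl39l, Rpl10l and Rpl36al are green and lie above them, with medians of 45.9 for genes with at most 5 pseudogenes and 2.33 for those with more than 20.

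Between the genotypes, few ribosomal protein genes were called. Of the 4 called at an adjusted p of 0.05 with all libraries, 3 lie on chromosome 17, which also carries Rfx2. At an adjusted p of at most 0.01 and more than 2-fold, 1 of the 80 tested genes, Rps28, was higher in Rfx2-/-, where 0.826% of all 15613 tested genes were. None was lower in the main edgeR fit at these limits, against 3.68% of all genes. DESeq2 called 1 lower at the same limits, as did edgeR with every gene of at least 1 count or with length and GC trends removed. At an unadjusted p under 0.05, 1 was lower. The shares of all genes under these rules are not given here, so these counts cannot be set against them. At an adjusted p of at most 0.05 with no fold limit, Rps28, Rps2 and Rps18 were higher, 3 of 80 beside 3.48% of all genes, and Rpl30 was lower, 1 of 80 beside 7.31%. The shares are near those over all genes for the higher calls and below them for the lower ones. Without Rfx2-/- replicate 2, the library in which most members were highest, Rps28 and Rps2 were higher and Rpl30 lower at this limit, beside 4.93% and 9.77% of all genes. A further 18 members were higher at an unadjusted p under 0.05 only, so that 21 of 80 were under it beside 13.9% of all genes.

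**Figure D2:**
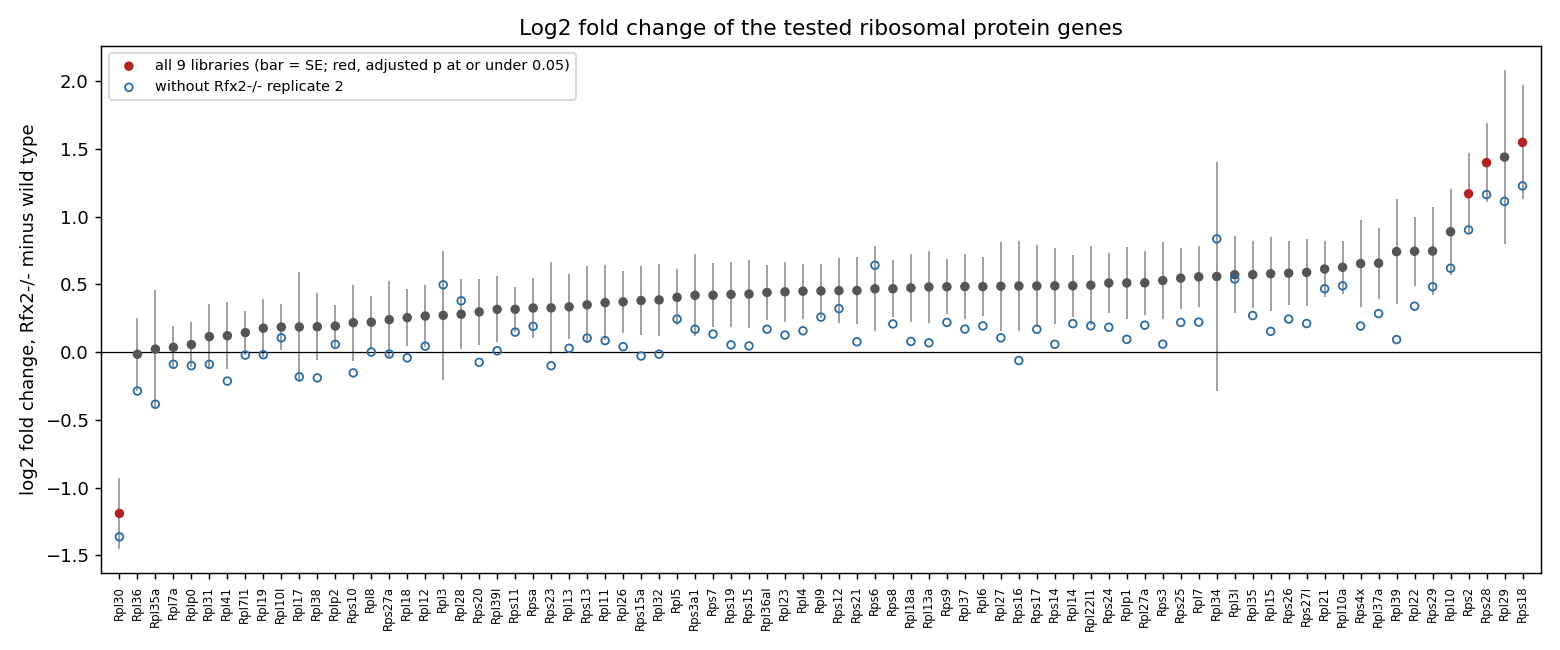
Log2 fold change (Rfx2-/- minus wild type) of the tested ribosomal protein genes in increasing order (1 not reported here is not drawn), from all 9 libraries (filled, bars are SE, red at an adjusted p of at most 0.05) and without Rfx2-/- replicate 2 (open). Of all 80 tested genes 78 lie above 0, and without that library 61 do, while Rpl30 stays lowest and Rps18 highest.

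Rps28, a protein of the small-subunit head, lies on chromosome 17 (33819027 to 33824562, GRCm38, minus strand). Its wild-type libraries had 1.83, 2.94, 2.86, 4.86 and 2.18 CPM and its Rfx2-/- libraries 5.41, 11.3, 6.74 and 7.71 CPM. The groups did not overlap, although wild-type replicate 4 came close to the lowest knockout. The log2 fold change was 1.40 (SE 0.29, adjusted p = 0.00846). Leaving out wild-type replicate 1, 2, 3 or 5 or Rfx2-/- replicate 3 or 4 took the adjusted p to between 0.0153 and 0.0286, past the stricter limit. Its exons overlap by 88 bases those of Kank3, a gene on the opposite strand. Reads over this overlap were left out if counting ignored strand, which is not given in the sources used here. Kank3 fell by 0.64 on the log2 scale (adjusted p = 0.0173).

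Rps18 (33951999 to 33956001, minus strand), another protein of the small-subunit head, lies close to Rps28 on the chromosome. It had 2.90, 2.71, 2.06, 9.14 and 2.65 CPM in wild type, against 7.20, 18.2, 9.60 and 10.7 CPM in the knockouts. Of the wild-type libraries 4 were low, and replicate 4 was within the knockout range. The log2 fold change was 1.55 (SE 0.42, adjusted p = 0.0347), and without wild-type replicate 4 it was 2.14 (adjusted p = 0.000776). Leaving out Rfx2-/- replicate 2 gave 1.23 (adjusted p = 0.0931), and leaving out any other library but wild-type replicate 4 or Rfx2-/- replicate 1 gave adjusted p between 0.05001 and 0.0931, so that the call was lost.

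Rps2 (24718116 to 24721929, plus strand), which lines the entry of the mRNA channel, had 6.80, 5.65, 5.38, 13.7 and 6.23 CPM in wild type, against 12.6, 25.7, 15.2 and 14.6 CPM in the knockouts. Again wild-type replicate 4 alone among the wild types reached the knockout range. The log2 fold change was 1.17 (SE 0.30, adjusted p = 0.0262), and 1.50 without that library (adjusted p = 0.00229). Leaving out wild-type replicate 1, 2, 3 or 5 raised the adjusted p to between 0.0582 and 0.0746, and the call was lost. Rps2 shares windows with 71 pseudogenes, so part of its reads may have been discarded.

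The other 5 genes of chromosome 17 did not pass the edgeR test with all libraries. Rpl10a (28328471 to 28331033) had 4.28 to 7.17 CPM in wild type, against 7.90 to 11.5 CPM in the knockouts, without overlap (log2 fold change 0.63, adjusted p = 0.0622). It was called at an adjusted p of 0.05 by DESeq2, on total counts, with voom quality weights and without wild-type replicate 3. Rpl3l, next to Rps2 on the chromosome, had a log2 fold change of 0.57 (adjusted p = 0.211), Rps10 of 0.22 (adjusted p = 0.644) and Rpl7l1 of 0.14 (adjusted p = 0.594). Rpl36, at 0.162 Mb the member nearest to Rfx2, had -0.02 (adjusted p = 0.976). Rps28 and Rps18 lie 22.9 and 22.8 Mb from Rfx2 and Rps2 32.1 Mb. Of the 758 tested genes of chromosome 17, 4.09% were higher at an adjusted p of 0.05, against 3.48% of all genes. The targeted chromosome came from 129/Sv cells in mice labelled as of mixed strains, so the genotype and the strain origin of chromosome 17 in these mice cannot be told apart.

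**Figure D3:**
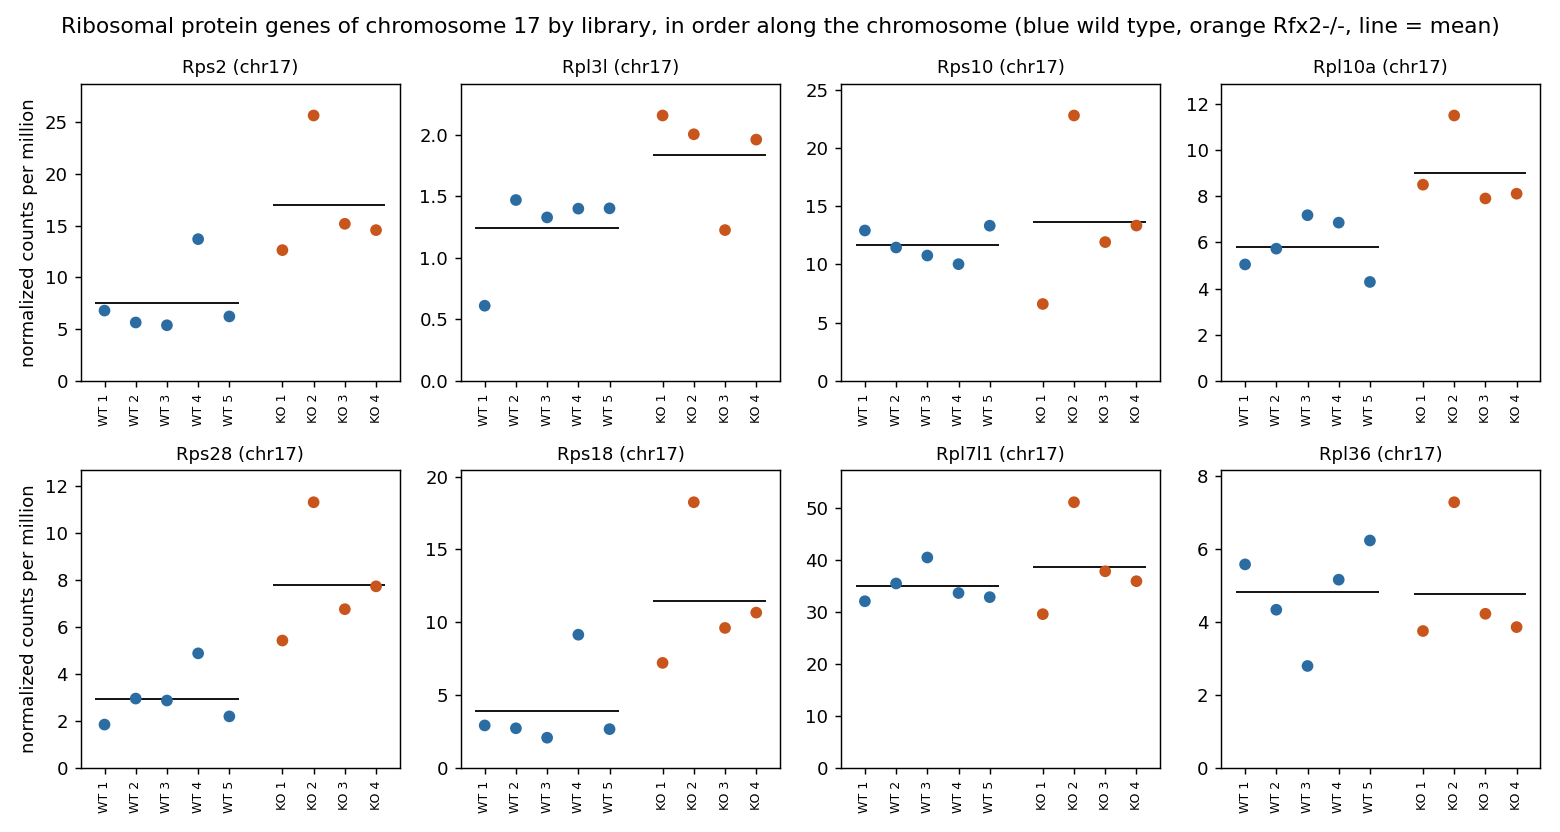
Normalized level (CPM) of the 8 ribosomal protein genes of chromosome 17 in each library, in order along the chromosome (blue wild type, orange Rfx2-/-, lines are means). For Rps2, Rps28 and Rps18 wild-type replicate 4 lies above the other wild types, at 13.7, 4.86 and 9.14 CPM, whereas Rpl7l1 and Rpl36 overlap between the genotypes.

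The stretch around the annotated start is shown for these 3 genes, because TOP starts are known in this family (RefSeq, GRCm38.p6, 20 bases to either side of the start). Capitals mark a C followed by at least 4 C or T that begins within 5 bases of the start on the sense strand. Rps18 has such a start, Rps2 has one that begins 4 bases after the annotated base, and the Rps28 window holds none in that place. The windows are chr17:24720043-24720082 (plus strand) for Rps2, chr17:33824543-33824582 (minus strand) for Rps28 and chr17:33955646-33955685 (minus strand) for Rps18.
Rps2: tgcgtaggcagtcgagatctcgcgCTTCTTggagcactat
Rps28: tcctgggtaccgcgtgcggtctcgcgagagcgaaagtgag
Rps18: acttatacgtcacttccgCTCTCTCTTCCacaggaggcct
Promoter entries were found for 64 of the 84 members, 76 entries in all. A TOP start was present in 42.1% of them and in 18.3% of all 32851 promoters.

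Rpl30, a large-subunit protein, was the member called lower. It lies on chromosome 15 and had 24.6, 13.1, 21.9, 29.7 and 16.2 CPM in wild type, against 6.34, 12.3, 10.2 and 8.30 CPM in the knockouts. All knockout libraries were below all wild types, although wild-type replicate 2 and Rfx2-/- replicate 2 were close. The log2 fold change was -1.19 (SE 0.26, adjusted p = 0.0116), and -1.36 without Rfx2-/- replicate 2 (adjusted p = 0.00351), where most members had their highest value. Without Rfx2-/- replicate 4 the adjusted p was 0.0508. Rpl30 shares 28.7% of its windows with other transcripts, 16 pseudogenes among them.

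Rpl30 was also among the 5 members listed by the study as carrying an RFX2 peak at the promoter in testis chromatin, with Rpl35a, Rpl22l1, Rps3 and Rps27. The study took that chromatin from dissociated germ cells of younger wild-type mice, and not from whole testis at the age used here. The share of all genes on the study's list is not given here, so the 5 members cannot be set against it. Of the other bound members, the 3 that were tested did not pass the test. Rpl35a, of the large subunit, had 12.8, 12.9, 12.3, 11.9 and 20.8 CPM in wild type, against 10.6, 25.1, 18.9 and 3.01 CPM in the knockouts (log2 fold change 0.02, SE 0.43, adjusted p = 0.981). The knockout libraries lay on both sides of the wild types. Rps3, at the mRNA entry of the small subunit, stood at 106 ± 6.73 CPM in wild type, against 153 ± 87.1 CPM in the knockouts (log2 fold change 0.53, SE 0.28, adjusted p = 0.242). Rpl22l1 had a log2 fold change of 0.49 (SE 0.29, adjusted p = 0.288). Rps27 had too few counts for a test, with 0.234 to 0.688 CPM in wild type, against 0.498 to 0.749 CPM in the knockouts.

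RFX proteins bind the X-box, an inverted repeat, searched here on both strands as GTTNCC and GGNAAC with 0 to 3 bases between them and at most 2 of the 10 fixed letters different. The matches of the bound members with a promoter entry are shown because these promoters are on the list of bound genes, with the match in capitals and the flanks in lower case (RefSeq, GRCm38.p6). They lie at chr3:28805351-28805444 (plus strand) for Rpl22l1, chr7:99483751-99483843 (minus strand) for Rps3, chr16:33056260-33056351 (plus strand) for Rpl35a and chr3:90213629-90213687 (minus strand) for Rps27.
Rpl22l1: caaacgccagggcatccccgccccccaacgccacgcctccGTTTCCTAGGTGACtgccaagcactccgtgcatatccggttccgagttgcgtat
Rps3: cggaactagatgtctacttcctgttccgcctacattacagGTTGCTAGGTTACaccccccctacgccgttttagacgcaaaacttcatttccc
Rpl35a: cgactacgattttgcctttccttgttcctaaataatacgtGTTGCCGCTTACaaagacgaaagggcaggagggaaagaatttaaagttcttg
Rps27: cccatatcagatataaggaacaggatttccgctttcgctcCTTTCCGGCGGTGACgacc
The Rpl22l1 match has 1 letter different and the others 2. Such a match, at up to 2 letters different, is in 34.4% of all promoters of this length and in 40.8% of those of the members. At up to 1 letter different the shares were 5.44% and 3.95%. A match is a resemblance in letters and does not show where the protein bound. Rpl30 has no entry in the promoter table.

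Some members stood high in some libraries and low in others, across both genotypes. Among the 74 members with a mean of at least 20 counts in wild type, 4 spanned more than 3-fold between wild-type libraries, Rpl34, Rpl29, Rpl3 and Rps18. That is 5.41% of them, against 2.05% of all genes at that depth, while the median span was 1.32-fold for members and 1.35-fold for all genes.

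Rpl34, a large-subunit protein encoded on chromosome 3, had 2.06, 1.55, 1.73, 18.8 and 17.4 CPM in wild type, against 16.5, 4.48, 1.84 and 25.8 CPM in the knockouts. Wild-type replicates 4 and 5 stood with Rfx2-/- replicates 1 and 4, and the groups overlapped (log2 fold change 0.56, SE 0.85, adjusted p = 0.697). Rpl29, a heparin-binding protein of the large subunit encoded on chromosome 9, had 5.27, 1.08, 0.864, 0.295 and 6.70 CPM in wild type, against 5.11, 12.4, 5.58 and 7.65 CPM in the knockouts. Here wild-type replicates 1 and 5 stood with the knockouts, so a log2 fold change of 1.44 had an SE of 0.64 and an adjusted p of 0.172. Rpl3, at the catalytic centre and encoded on chromosome 15, had 1.68, 2.09, 5.71, 5.01 and 4.99 CPM in wild type, against 2.02, 2.14, 7.63 and 7.32 CPM in the knockouts. Its low libraries were wild-type replicates 1 and 2 and Rfx2-/- replicates 1 and 2 (log2 fold change 0.27, adjusted p = 0.741). Each of these genes divided the animals differently. The lowest Rpl29 value rested on 4 counts. Rpl29 shares windows with 81 pseudogenes, Rpl3 with 26 and Rpl34 with 9, and the part of reads lost to copies, or of strain differences in this mixed line, was not tested.

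**Figure D4:**
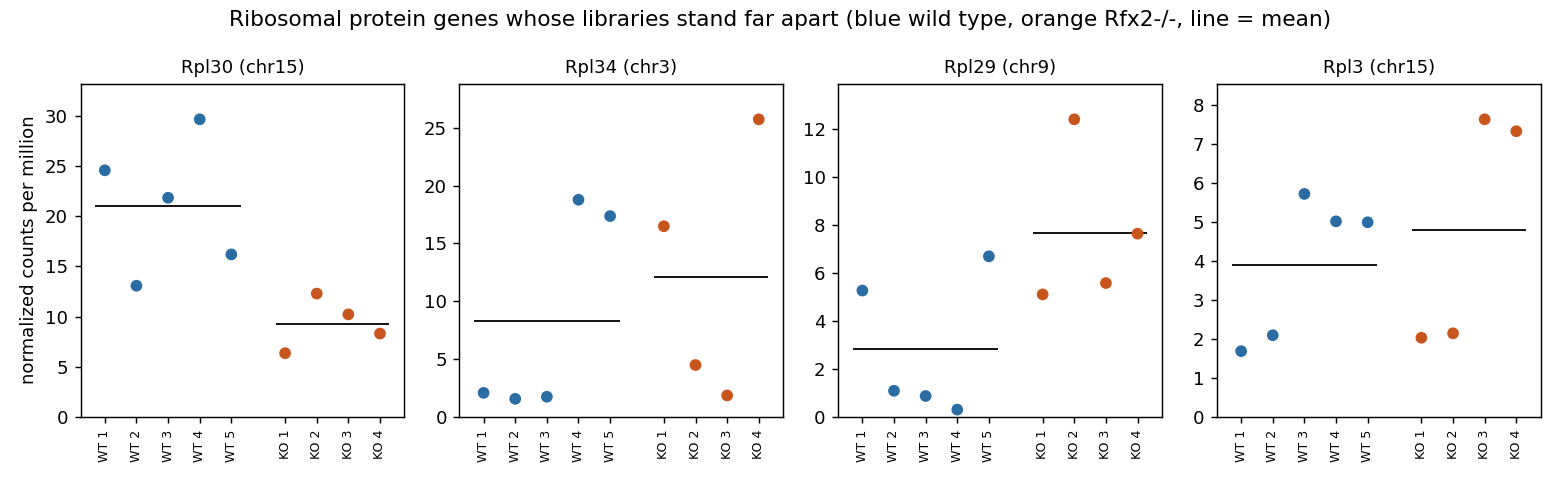
Normalized level (CPM) of Rpl30, Rpl34, Rpl29 and Rpl3 in each library (blue wild type, orange Rfx2-/-, lines are means). For Rpl34, Rpl29 and Rpl3 high and low libraries occur in wild type, from 1.55 to 18.8, 0.295 to 6.70 and 1.68 to 5.71 CPM, whereas the Rpl30 libraries separate by genotype.

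As a family the genes had a positive median difference, set to a large extent by 1 animal. Of the 80 tested members 78 had a log2 fold change above 0, or 97.5%, against 53.1% of all genes, with a median of 0.45 against 0.03 over all genes. The medians were 0.44 for the large subunit and 0.47 for the small subunit. Without Rfx2-/- replicate 2 the median was 0.13, against 0.04 over all genes, and 61 of 80 were above 0. Without Rfx2-/- replicate 1, in which the members were lowest, 22 of 80 were higher at an adjusted p of 0.05 beside 8.86% of all genes, Rpl30 was the 1 that was lower, beside 8.45%, and the median was 0.62. Those 22 included Rps4x, Rpl7, Rpl22, Rpl36al, Rplp1 and Rps27l, with log2 fold changes from 0.62 to 0.94. By library, the median member stood between -0.08 and 0.08 from the wild-type mean in wild type, on the log2(CPM + 0.5) scale. In Rfx2-/- it stood at -0.13, 1.05, 0.13 and 0.34 in replicates 1 to 4. Replicate 1 was thus below every wild type, replicates 3 and 4 above them, and replicate 2 far above the rest.

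The share of counts taken by all 84 members was likewise lowest in Rfx2-/- replicate 1 and highest in replicate 2. It was 0.316%, 0.309%, 0.310%, 0.289% and 0.301% in wild type and 0.281%, 0.694%, 0.360% and 0.402% in Rfx2-/-. Rfx2-/- replicate 2 had the highest value of the 9 libraries for 73 of the 80 tested members, or 91.2%, against 32.0% of all tested genes. It was below the wild-type mean for 5 of them, Rpl28, Rpl30, Rpl3, Rpl34 and Rps6. Rpl4 had 261 to 296 CPM in wild type, against 283, 588, 303 and 341 CPM in the knockouts. Here replicate 2 was the high library and the other knockouts lay near or within the wild-type range. Of the stalk genes, Rplp0 at 0.06 (adjusted p = 0.854) and Rplp2 at 0.19 (adjusted p = 0.445) lay below the members' median log2 fold change of 0.45. Rplp1 lay above it at 0.51 (adjusted p = 0.232).

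The autosomal copies and the tested X-linked genes had positive differences too, and edgeR called none of them with all libraries. Rpl39l had 161, 419, 194 and 291 CPM in Rfx2-/- (log2 fold change 0.32, SE 0.25, adjusted p = 0.42), with wild types between 186 and 245. Rpl10l had 137, 201, 151 and 202 CPM (log2 fold change 0.18, SE 0.17, adjusted p = 0.499), within or near the wild-type range of 119 to 183. X-linked Rpl10 had 1.23, 2.27, 1.43 and 0.98 CPM, each above the highest wild type of 0.935 (log2 fold change 0.89, SE 0.32, adjusted p = 0.0957). Rpl39 had 1.43, 6.95, 2.59 and 2.42 CPM, where replicate 2 alone stood well above the wild types (log2 fold change 0.74, SE 0.39, adjusted p = 0.233). Rpl22, which also binds RNA outside the ribosome, had 47.2, 129.7, 58.7 and 63.6 CPM against 37.9 to 49.7 CPM in wild type (log2 fold change 0.74, SE 0.25, adjusted p = 0.0841). By DESeq2 it was called with an adjusted p of 0.0409, and on total counts with 0.0432.

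Rfx2-/- replicate 2 stood apart in other features as well. It had the lowest Rfx2 level, 61.5 CPM against 151 to 199 CPM in the other knockouts. Mitochondrial transcripts took 1.75% of its counts, against 0.554% to 0.951% in the other libraries. Its 7 meiotic prophase markers summed to 2439 CPM, against 1172 to 1389 CPM in the other knockouts and 835 to 1128 CPM in wild type. Its 8 macrophage markers summed to 517 CPM, against 253 to 300.0 CPM in the other knockouts and 271 to 417 CPM in wild type, but 5 of the 8 were above the other knockouts, Lyz2 and Aif1 among them, and 2, Csf1r and Cx3cr1, were below them. All 5 endothelial markers were below the other knockouts. Over the 11 marker lists, 7 sums were above those of all other knockouts in this library (Leydig, macrophage, erythroid, spermatogonia, meiotic prophase, round and elongating spermatid) and 2 were below (peritubular and endothelial). Tested genes outside the family with under 1000 bases of exon, 809 of them, had a median of 0.67 above the wild-type mean in this library. The members are short too, with a median exon length of 1016 bases against 3269 over all tested genes. With smooth trends on exon length and GC content removed, the median log2 fold change of the members was 0.30, and 71 of 80 were above 0. The part of cell make-up and of RNA quality in the shift was not tested.

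**Figure D5:**
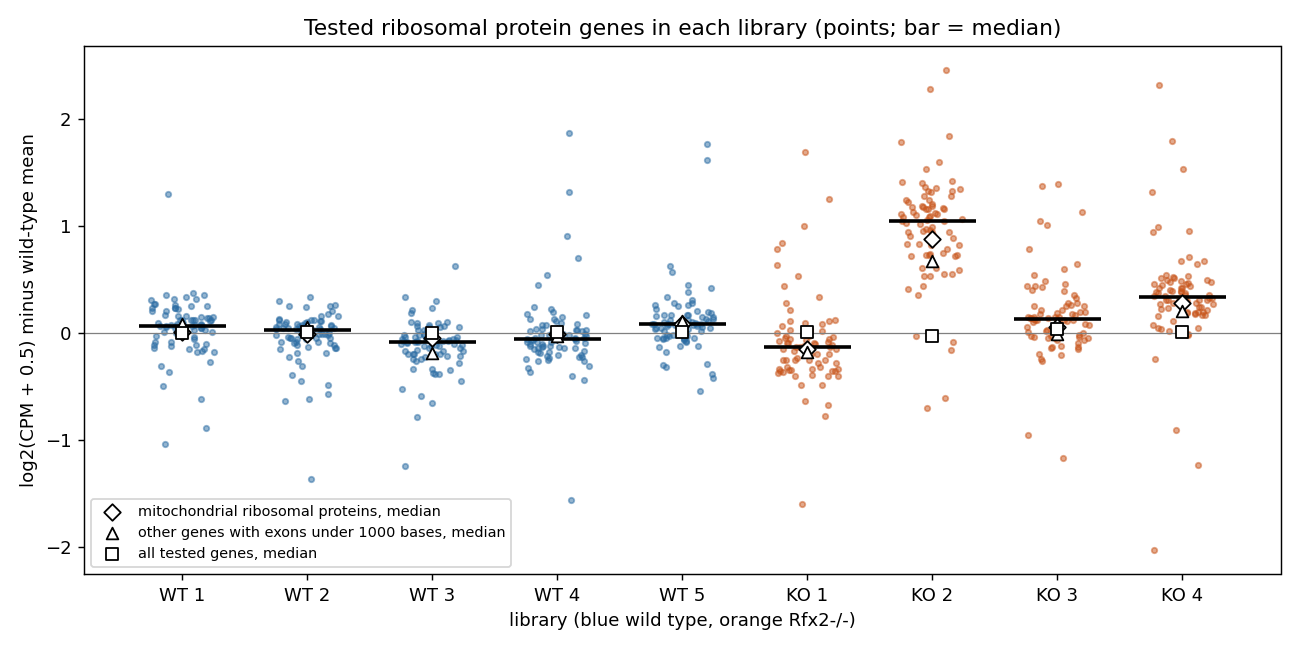
Each of the 80 tested ribosomal protein genes in each library, as log2(CPM + 0.5) minus its wild-type mean (points, bar is the median), with the medians of mitochondrial ribosomal protein genes (diamonds), of other genes with exons under 1000 bases (triangles) and of all tested genes (squares). The median member is at 1.05 in Rfx2-/- replicate 2 and between -0.13 and 0.34 in the other knockouts, while all genes stay near 0.

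Other genes of the translation machinery were followed from fixed lists. Mitochondrial ribosomal proteins, which build the separate ribosome of that organelle, had a median log2 fold change of 0.33, and 64 of 75 tested were above 0, but 0.08 without Rfx2-/- replicate 2. Of the 75, only Mrps10 rose at an adjusted p of 0.05 (log2 fold change 0.74, SE 0.21, adjusted p = 0.0455), and none fell. Of 22 ribosome biogenesis genes none was called, with a median of 0.09. None of 5 elongation factors was called and 4 were below 0, with a median of -0.08. None of 10 further mRNAs with a TOP start was called, with a median of 0.25. In Rfx2-/- replicate 2 these lists were mixed. Of the 10 TOP mRNAs 6 were above all other knockouts there, such as Npm1 at 237 CPM against 117 to 145 CPM, and 3 were below, among them Pabpc1, the poly(A)-binding protein, at 894 CPM against 1929.5 to 2166 CPM. Of the 5 elongation factors 2 were above and 2 below, the latter including Eef2 at 890.2 CPM against 1893 to 2159 CPM. These genes were chosen for display after their values were seen. Those counts of 0 calls are by edgeR.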

How the data were processed

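TruSeq libraries of testis RNA, 1 from each of 9 mice, were sequenced in single reads. Per the study's methods, the authors aligned reads to GRCm38 with STAR, discarded reads that fit several places, and counted with featureCounts over merged exons of protein coding isoforms, leaving out reads over exons of different genes. The deposited values are raw counts per gene. The submitters' processing notes name CASAVA 1.8.2, STAR 2.4 and featureCounts 1.4.6. Whether strand was used is not given in the sources used here.

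Names, positions and exon lengths came from GENCODE M21 (GRCm38), which named 96.6% of the gene identifiers. The genotypes were compared with edgeR 4.0.16 (R 4.3.3), TMM factors, its expression filter and robust quasi-likelihood tests, with Benjamini-Hochberg adjustment over 15613 genes. The steps were tested on simulated data. CPM use TMM-scaled totals. Sequence windows of 50 bases were taken from every annotated transcript of a gene, coding or not, and compared between genes, pseudogenes included. No label ties libraries of the genotypes together.

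Genes named are those called at either limit, the 5 largest and 5 smallest fold changes, the 5 highest and 3 lowest wild-type levels per kilobase, X-linked members, paralogues, stalk genes, members in the study's list of bound genes, and the 5 with most shared windows. Rpl34, Rpl10a, Rps10, Rpl11 and Rpl28, and the list genes shown with the called ones, were named after their values were seen. A member and a list gene that the rule names are not reported here. The members and lists were chosen with earlier results of these data known. Alternatives used other scaling, DESeq2 1.42.0, another filter, no robust step, limma 3.58.1 voom with quality weights, length and GC trends, and each library left out.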

Additional observations from a re-analysis of the deposited data

Results flagged for a closer look

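In 76 groups of libraries examined (the named members, the summed share and the median of the members, in each genotype), 8 had a library set apart from the rest of its group by Dixon's test at 95%, where chance gives about 3.8. In wild type, replicate 4 stood apart for Rps18 at 9.14 CPM (others 2.06 to 2.90) and for Rps2 at 13.7 CPM (others 5.38 to 6.80). Replicate 5 stood apart for Rpl35a at 20.8 CPM (others 11.9 to 12.9) and for Rpl36a at 0.0779 CPM (others 0.199 to 0.232), the latter from 1 to 3 counts. Replicate 3 was low for Rpl36al at 15.9 CPM (others 18.6 to 19.3), and replicate 1 was low for Rpl3l at 0.611 CPM (others 1.33 to 1.47). In Rfx2-/-, replicate 2 stood apart for Rpl36 at 7.28 CPM (others 3.75 to 4.22) and for Rpl36a at 0.668 CPM (others 0.261 to 0.299).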

How the results depend on the processing

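No paired analysis was possible because the replicate numbers follow the order of the libraries and tie no animals of the genotypes together. At 1% and 2-fold, 1 member was called lower by DESeq2, with every gene of at least 1 count, with length and GC trends removed and at an unadjusted p of 0.01, and 0 to 1 with a library left out (1 without wild-type replicate 2 or Rfx2-/- replicate 2). Higher calls there were 3 by DESeq2 and 3 at the unadjusted p, and 0 to 3 with a library left out. The shares of all genes for these alternatives at 1% and 2-fold are not given here. At 5%, lower calls were 0 with voom quality weights, beside 11.5% of all genes. With a library left out they were 0 to 1, beside 5.44% to 9.77%. Higher calls were 6 on total counts, beside 7.54% of all genes, and 5 by DESeq2, beside 6.17%. With a library left out the higher calls were 1 to 22, beside 1.78% to 8.86% of all genes. The 22 came without Rfx2-/- replicate 1, where 8.86% of all genes were called higher, and the 1 without wild-type replicates 1, 2 or 5. Rps28 stayed at an adjusted p between 0.000137 and 0.0286 in all 16 alternative fits, Rps2 between 0.00229 and 0.0746, Rps18 between 0.000776 and 0.0931 and Rpl30 between 0.000295 and 0.0586. The median log2 fold change of the members lay between 0.13 and 0.62 and the difference in summed share between 0.0427 and 0.18 percentage points with a library left out. Total counts alone moved the median of all genes to 0.16 and that of the members to 0.59. The signs of members near 0 turned: with voom weights Rpl17 was at -0.30, Rpl35a at -0.50, Rpl7a at -0.0567 and Rplp0 at -0.0905; with trends removed Rpl17 was at -0.0472, Rpl22l1 at -0.0242, Rpl35a at -0.20, Rpl39l at -0.0876 and Rpl7a at -0.0689; Rpl36 was at 0.14 on total counts and 0.0082 with every gene of at least 1 count. With a library left out, Rpl17 lay between -0.18 and 0.52, Rpl3 between -0.0201 and 0.57, Rpl35a between -0.38 and 0.39, Rpl36 between -0.29 and 0.12, Rpl7a between -0.09 and 0.14, Rpl7l1 between -0.0222 and 0.28 and Rplp0 between -0.10 and 0.21. A scale per kilobase of windows not shared with transcripts of other genes was added after the data were seen. It includes windows of transcripts that were not counted. On it, 25 of 36 named levels moved by more than their SD. The cause of these changes was not tested. Members at a few counts, such as Rpl36a, are limited by depth.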
